A study of Zea mays with 10 samples.

Results

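The gene an1 (anther ear1, listed in RefSeq with the synonym Ent-CPS) encodes ent-copalyl diphosphate synthase, an enzyme that opens the pathway from geranylgeranyl diphosphate to the gibberellins. It was measured here beside LOC732812, whose RefSeq synonym is arf1, in leaves of field-grown maize (Zea mays). Both were found by symbol or synonym among the elements of a 2-colour array that have exactly 1 gene in the platform annotation. This gave 4 elements out of 19200 on the array and out of 1800 with exactly 1 gene, namely elements 1915, 3914 and 17954 for an1 and element 11654 for LOC732812. The genes were chosen by symbol with earlier weedy against control ratios of these same arrays known, so those ratios are given below as a description, without a test.

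Gibberellins are growth hormones that promote stem and leaf elongation by removing DELLA repressor proteins, and in maize a loss of an1 function gives short plants with anthers on the ear. Plants that sense neighbours through a low ratio of red to far-red light commonly elongate, and gibberellin and auxin both act in that response. Auxin response factors are transcription factors that bind auxin-responsive promoters. The letters arf also stand for ADP-ribosylation factors, small GTPases that recruit coat proteins to vesicles.

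The names do not bear out auxin response for LOC732812. In the RefSeq table, 21 genes carry a name made of ARF in capitals and a number, and ARF1 in capitals belongs to a different gene, LOC103642400. LOC732812 was the 1 gene with arf1 in lower case and is not among those 21. None of the 21 had an element named in the annotation, a count of 0. The tables give no description of the protein. The gene is therefore called LOC732812 here, and no value below is read as a value of an auxin response factor.

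Each of 8 plots, 4 seeded with velvetleaf (weedy) and 4 hand cultivated to take out most weeds (control), gave 1 pool of leaf from 4 plants. The maize received no added water or fertilizer in either treatment, and the labels give no maize line and no plant age. On each of 10 arrays 1 weedy pool was hybridised with 1 control pool, with weedy RNA in Cy5 on 5 arrays and control RNA in Cy5 on the other 5; arrays are numbered within each of these dye orientations. A pool was on 2 to 4 arrays, so arrays are not independent plants, and control plots were not stated to be free of weeds. In such pooled tissue, fewer cells that express a gene and less RNA per cell cannot be told apart, and a ratio holds no level from which the leaf tissue could be checked.

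Arrays held between 9965 and 17383 values. The lowest number was on array 5 with control RNA in Cy5, where elements 3914 and 17954 of an1 had no value. The other 2 elements had a value on all 10 arrays, and all 4 passed the minimum of 4 arrays per dye orientation that left 16201 elements. The deposited values are log ratios with no stated base or numerator. They were treated as log2 of Cy5 over Cy3 and centred on the median of each array. Arrays of the same orientation correlated over all elements with a median r of 0.108 (20 pairs), and arrays of opposite orientation with a median of -0.05 (25 pairs), from -0.298 to 0.233.

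Under that reading, a weedy effect gives opposite signs in the 2 orientations, and a dye effect gives the same sign in both. Element 1915 of an1 had centred log2 ratios of -0.26, 0.34, 1.18, 0.17 and 0.85 on arrays 1 to 5 with weedy RNA in Cy5. On arrays 1 to 5 with control RNA in Cy5 it had -0.71, -0.87, 0.24, -0.14 and -0.79. It was thus mostly positive in the first orientation and mostly negative in the second, with 1 array of each set on the other side of 0, so the orientations overlapped. The mean was 0.46 ± 0.57 with weedy RNA in Cy5 and -0.45 ± 0.48 with control RNA in Cy5 (SD, n = 5 each).

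Element 3914 of an1 had -0.42, 0.45, 0.72, 0.37 and 1.20 on arrays 1 to 5 with weedy RNA in Cy5. On arrays 1 to 4 with control RNA in Cy5 it had -0.33, -0.32, 0.33 and -0.15. The arrays that stood on the other side of 0 were the same as for element 1915, array 1 with weedy RNA in Cy5 and array 3 with control RNA in Cy5. Both of these hold weedy plot 2.

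Element 17954 of an1 differed from them. Its centred log2 ratio was 0.31, 0.75, 0.31, 0.54 and 1.46 on arrays 1 to 5 with weedy RNA in Cy5, and 0.10, 0.19, 0.52 and 0.18 on arrays 1 to 4 with control RNA in Cy5. It was above 0 on 9 of 9 arrays, whichever dye carried the weedy RNA. Of the 16201 elements tested, 43, or 0.265%, were above 0 on every array with a value. The mean was 0.68 ± 0.47 with weedy RNA in Cy5 (SD, n = 5) and 0.25 ± 0.19 with control RNA in Cy5 (SD, n = 4), and the orientations overlapped.

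The element of LOC732812 had centred log2 ratios close to 0 on most arrays. They were 0.15, 0.15, -0.013, -0.25 and -0.19 on arrays 1 to 5 with weedy RNA in Cy5, and -0.06, -0.13, -0.44, -0.24 and -0.75 on arrays 1 to 5 with control RNA in Cy5. It was below 0 on 8 of 10 arrays and on 5 of 5 with control RNA in Cy5. The mean was -0.03 ± 0.19 with weedy RNA in Cy5 and -0.32 ± 0.28 with control RNA in Cy5 (SD, n = 5 each), and the orientations overlapped.

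**Figure D1:**
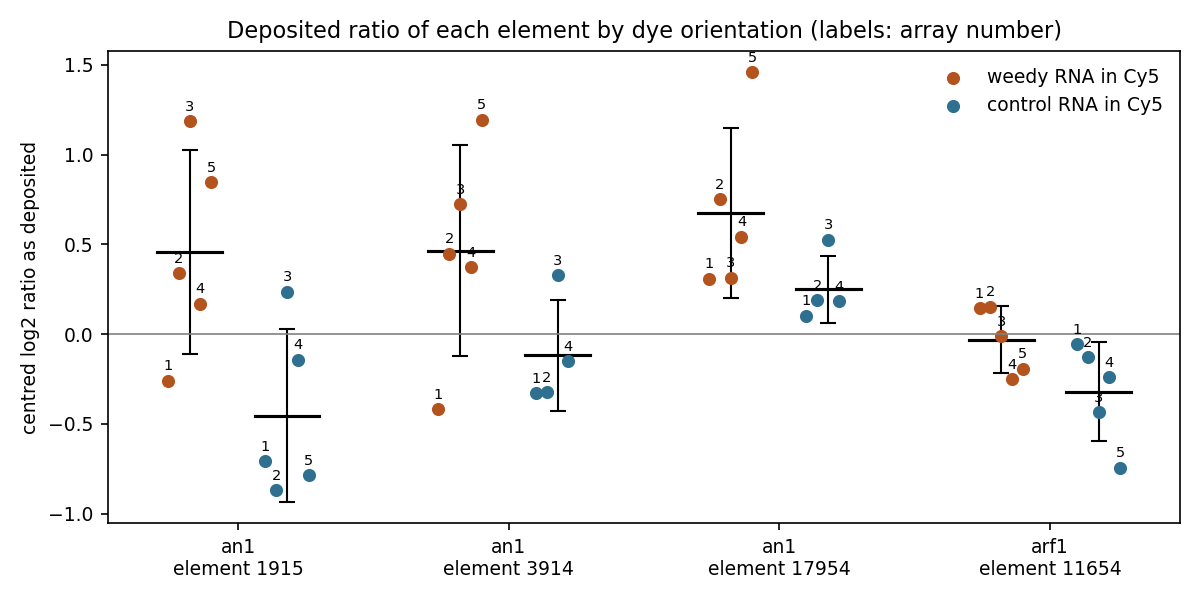
Centred log2 ratio as deposited (y axis) of the 3 an1 elements and the 1 LOC732812 element (labelled arf1), each point an array numbered within its dye orientation, weedy RNA in Cy5 left and control RNA in Cy5 right; bars show the mean and 1 SD. Element 1915 has means of 0.46 and -0.45, on opposite sides of 0, whereas element 17954 lies above 0 on all 9 arrays.

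To set weedy over control, the ratio of each array with control RNA in Cy5 was turned in sign. Averaged over its elements, an1 then had a fitted turned log2 ratio of 0.37 (SE 0.13, 10 arrays). The model held a treatment term, a dye term and the plots as random effects. Its plot variance was set at 0.0347 of the array variance for every element. The SE therefore need not carry the spread of an1 among plots given below, and it was 0.12 with arrays treated as independent. The single elements stood at 0.46 (SE 0.15) for element 1915, 0.29 (SE 0.14) for element 3914 and 0.21 (SE 0.12) for element 17954. The median size of this ratio over all 16201 elements was 0.104. For LOC732812 the fitted turned ratio was 0.14 (SE 0.09), the smallest of the 4. With an adjusted p under 0.05 as the call, 0 of the 4 elements were called, beside 2 of 16201, or 0.0123%, over the array. Nothing is read from that count, since the contrast was known when the genes were chosen.

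The ratio of an1 was unequal among the weedy plots. In weedy plot 2 its gene mean had a turned log2 ratio of -0.12 against control plot 1 and -0.36 against control plot 4. Weedy plot 4 was at 0.74 against control plot 3 and 1.17 against control plot 4, and its RNA was in Cy5 both times. Weedy plot 1 lay between 0.31 and 0.36 on 3 arrays, and weedy plot 3 between 0.04 and 0.79 on 3 arrays. The value of 0.79 came from element 1915 alone, on array 5 with control RNA in Cy5. Without that array the fitted gene ratio was 0.31 (SE 0.13). Weedy plot 2 was thus the 1 weedy plot with an1 below its control plots on both arrays, and weedy plot 4 the one with the highest mean, 0.95. The ratio was unequal among the control plots as well. The gene mean averaged -0.04 on the arrays of control plot 1, 0.41 for control plot 2, 0.54 for control plot 3 and 0.49 for control plot 4. Each ratio holds a pool of both treatments, so the part of either pool cannot be told from it alone. Without weedy plot 4 the fitted gene ratio was 0.23, with 0.27 for element 1915, 0.12 for element 3914 and 0.14 for element 17954. Without weedy plot 2 the gene ratio was 0.53. For element 17954, array 5 with weedy RNA in Cy5 held the highest value, and without it the ratio was 0.11.

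On each of the 3 an1 elements, weedy plot 2 had the lowest mean among the weedy plots and weedy plot 4 the highest. Weedy plot 2 averaged -0.25 on element 1915 and -0.37 on element 3914, and weedy plot 4 averaged 1.02 and 0.96 on them (2 arrays each). Element 17954 averaged -0.11 in weedy plot 2 and 0.89 in weedy plot 4 (2 arrays each). Its values differed within plots, where weedy plot 2 had 0.31 on one array and -0.52 on the other, and weedy plot 1 ranged from -0.19 to 0.54 over 3 arrays. In these plots the positive values of element 17954 came from arrays with weedy RNA in Cy5 and the negative ones from arrays with control RNA in Cy5.

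LOC732812 showed another order of the plots. Its turned log2 ratio averaged 0.38 in weedy plot 3 (3 arrays, from 0.15 to 0.75), 0.29 in weedy plot 2 (2 arrays, 0.15 and 0.44), -0.02 in weedy plot 1 (3 arrays, from -0.25 to 0.13) and -0.10 in weedy plot 4 (2 arrays, -0.19 and -0.013). The plot with the highest an1, weedy plot 4, thus had the lowest of these means. Its RNA was in Cy5 on both arrays, and the means keep the dye term, which was -0.18 for LOC732812. The part of the dye term in this order was not tested. The highest single value, 0.75, stood on array 5 with control RNA in Cy5, the array with the fewest values. Without that array the fitted ratio was 0.10, without weedy plot 3 it was 0.08, and without weedy plot 1 it was 0.25.

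**Figure D2:**
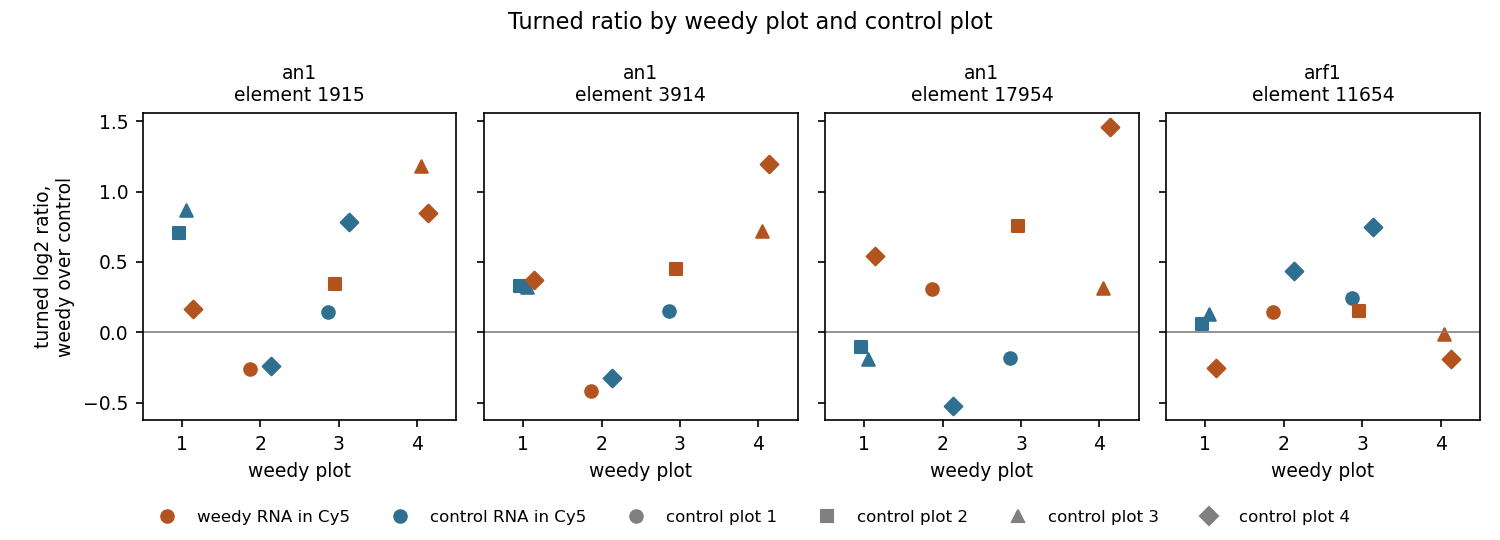
Turned log2 ratio, weedy over control (y axis), of each element against the number of the weedy plot (x axis), each point an array, with colour for the dye orientation and shape for the control plot. Elements 1915 and 3914 are below 0 on both arrays of weedy plot 2. They are highest on average in weedy plot 4, at 1.02 and 0.96, whereas LOC732812 averages -0.10 there. RNA of weedy plot 4 was in Cy5 on both of its arrays.

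The 3 elements of an1 were alike to unequal degrees. Over the 9 arrays with values of both, elements 1915 and 3914 had turned ratios of the same sign on 9 arrays and a Pearson r of 0.81. Elements 3914 and 17954 had r = 0.71 with the same sign on 5 of 9 arrays, and elements 1915 and 17954 had r = 0.30, also with 5 of 9. The median of these 3 correlations, 0.71, compares with a median of 0.108 (quartiles -0.09 and 0.335) over the 271 genes with several tested elements. These correlations are descriptions, since arrays share pools and elements of a gene may share sequence. The element of LOC732812 had r = -0.15 with element 1915 (10 arrays), -0.71 with element 3914 and -0.74 with element 17954 (9 arrays each). All of these turned ratios keep the dye term, which was 0.46 for element 17954 and -0.18 for LOC732812. Its part in the correlations was not tested.

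The dye term was not used to choose the genes and was tested. It was 0.46 (SE 0.12) for element 17954, 0.17 (SE 0.14) for element 3914, -0.0054 (SE 0.14) for element 1915 and -0.18 (SE 0.08) for LOC732812. None of the 4 passed limma's moderated test with Benjamini-Hochberg adjustment over all elements, where the adjusted p was 0.346 for element 17954, 0.694 for element 3914, 0.993 for element 1915 and 0.537 for LOC732812. Over the array 0 of 16201 elements passed for the dye term, or 0%, while 1538, or 9.49%, had an unadjusted p under 0.05. Element 17954 had the smallest unadjusted p of the 4, at 0.00161. For element 17954 the dye term was larger than the treatment term, for element 1915 the treatment term was larger, and element 3914 lay between them in both terms.

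**Figure D3:**
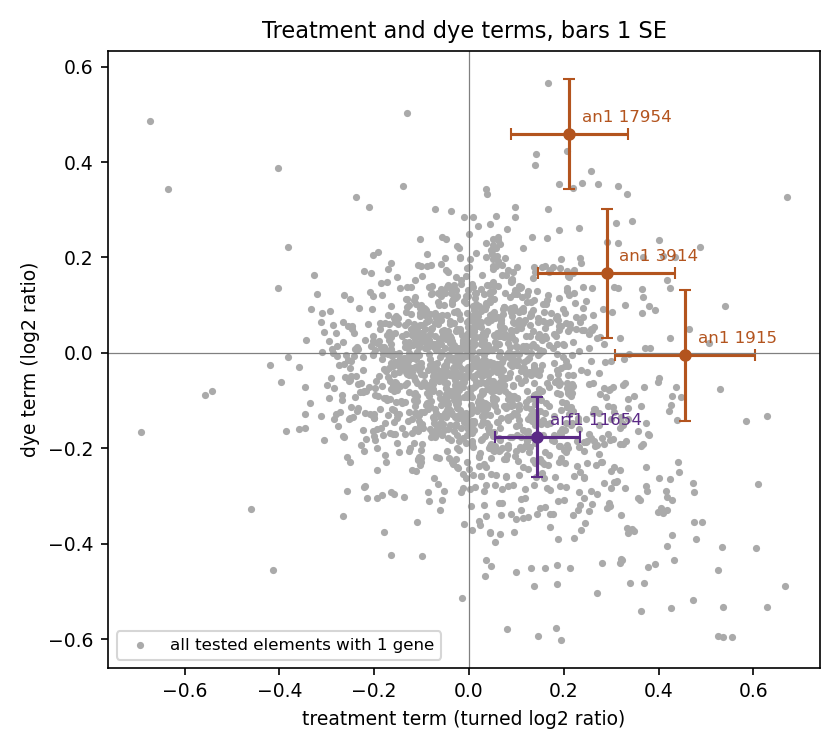
Treatment term (x axis, turned log2 ratio) against dye term (y axis, log2 ratio) of all tested elements with exactly 1 gene (grey) and of the 4 elements described, with bars of 1 SE. The an1 elements run from element 1915, with 0.46 in the treatment term and -0.0054 in the dye term, to element 17954, with 0.21 and 0.46.

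The direction of the deposited ratios is not given in the sources used here. Were the values of every array already weedy over control when deposited, the dye and treatment terms would exchange roles. In a fit on that reading the variance ratio of the plots was estimated anew, at 0, so its values are not exactly the terms above. Element 17954 would then have a weedy over control ratio of 0.46 (SE 0.12) and element 1915 one of 0.00091 (SE 0.14). Element 3914 would stand at 0.17 (SE 0.14) and the gene mean at 0.16 (SE 0.12). On that reading LOC732812 would stand at -0.18, the opposite sign. The gene mean and elements 3914 and 17954 of an1 were positive under both readings. On the second reading, however, the gene mean and element 3914 were little larger than their SE. Element 1915 was so close to 0 on the second reading that its sign there is not read. If the values run Cy3 over Cy5, every turned ratio has the opposite sign.

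Values near each member in table order moved with it to some degree, and positions on the slide were not used. A running median of the elements around it in table order ranged over the arrays from -0.264 to 0.205 for element 1915, from -0.188 to 0.132 for element 3914, from -0.118 to 0.37 for element 17954 and from -0.176 to 0.244 for LOC732812. Over the arrays with a value, the correlation between an element and this local median was 0.65, 0.60, 0.51 and 0.26 in that order. With the local median removed from every array, the fitted turned ratio was 0.34 (SE 0.12) for the an1 gene mean and 0.41 for element 1915. It was 0.15 for element 17954, whose dye term was then 0.32, and 0.21 (SE 0.07) for LOC732812. In this fit the variance ratio of the plots was estimated at 0, so its SEs treat arrays as independent although they share pools.

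Other hormone and light genes were taken by name, from words chosen with earlier results known. The gene means of 540 genes could be tested, their median turned log2 ratio was 0.02, 309 were positive, and limma called 0 of them at an adjusted p under 0.05, or 0%, with 64 at an unadjusted p under 0.05. For gibberellin, an1 was the 1 gene found. Under auxin 7 genes were found and 6 tested, 3 of them positive, with a median of -0.02 and 0 passing. The auxin-binding protein genes abp1 (LOC542232) and abp4 (LOC542294) stood at -0.04 (SE 0.06) and -0.04 (SE 0.11). TSB1 (LOC732842) and TSB2 (LOC732803), which encode tryptophan synthase beta subunits of the pathway to tryptophan, an auxin precursor, stood at 0.07 (SE 0.12) and -0.14 (SE 0.10). The nitrilase gene NIT1 (LOC542573) was at 0.0003 (SE 0.11) and BA1, barren stalk1, a transcription factor gene of axillary meristems, at 0.10 (SE 0.12). The auxin list thus held ratios on both sides of 0, the farthest being that of TSB2. The auxin carrier gene aux1 (LOC541998) had too few values to be tested.

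Of the other hormones, DWF1 (LOC542549), named for a dwarf mutant of sterol and brassinosteroid synthesis, had a turned log2 ratio of -0.10 (SE 0.06). Among 6 cytokinin genes 4 were tested, 1 of them positive, with a median of -0.05 and 0 passing. The response regulator genes RR5, RR6 (LOC541632) and RR9 (LOC541638) stood at 0.20 (SE 0.10), -0.05 (SE 0.10) and -0.11 (SE 0.09), and the histidine kinase gene hk3 (LOC541642) at -0.06 (SE 0.09). The ethylene receptor gene etr2 (LOC541627) had too few values. The light and branching list held 2 genes, both negative and neither passing. One was tb1, teosinte branched1, a repressor of axillary bud growth, at -0.22 (SE 0.10, negative on 6 of 10 arrays). The other was GT1 (LOC542140) at -0.10 (SE 0.08). GT1 was found by the letters of its synonym alone, and whether it acts in light response or branching was not checked.

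In the fit of gene means, LOC732812 had a turned log2 ratio of 0.14 (SE 0.08).

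**Figure D4:**
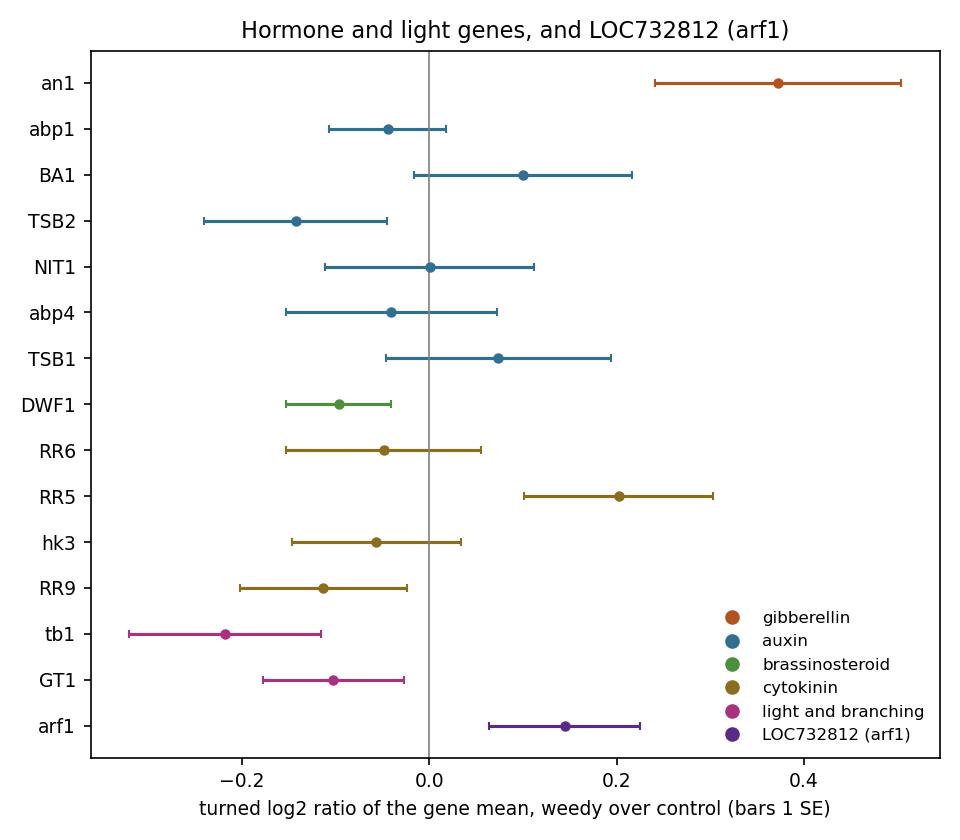
Turned log2 ratio of the gene mean, weedy over control (x axis), with bars of 1 SE, for the tested genes of the hormone and light lists and for LOC732812 (y axis, coloured by list). The an1 gene mean lies at 0.37, tb1 at -0.22 and LOC732812 (arf1) at 0.14.

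The genes whose turned ratios were most like those of an1 over the arrays were glx1 (LOC542115), a glyoxalase I gene, at r = 0.90 (10 arrays), MCM7 (LOC542504), a replicative helicase subunit gene, at r = 0.87 (9 arrays), and GNAT19 (LOC541936) at r = 0.85 (8 arrays), out of 539 genes compared. Their own fitted turned ratios were 0.05, -0.05 and 0.67, so a like course over arrays did not go with a like mean. For LOC732812 they were the profilin gene PRO4 (LOC541662), an actin-binding protein gene, at r = 0.92 (10 arrays), the photosystem I subunit gene psaN (LOC542605) at r = 0.91 (9 arrays) and psbs1 (LOC542126), a gene of energy dissipation in photosystem II, at r = 0.90 (10 arrays). Their fitted turned ratios were 0.12, 0.21 and 0.22. These genes are the top of a ranking over few arrays that share pools, and the correlations are given without a p. The turned ratios compared here keep the dye term. It was -0.18 for LOC732812, -0.45 for psaN and -0.37 for an element of psbs1. Over the elements of PRO4 it ran from -0.28 to 0.08. For an1 it was 0.15, with 0.04 for MCM7 and 0.33 for GNAT19, and from -0.09 to 0.09 over the elements of glx1. The part of the dye term in these correlations was not tested, so they are not read as a shared response to weeds.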

How the data were processed

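The deposited values were 1 log2 ratio per array element and array, as treated here; the log base, the numerator channel, the normalization, the scanner and any filter: not given in the sources used here. No signal or background values were used, so precision is limited by the number of arrays. Elements were named through the platform annotation, which gave exactly 1 gene for 1800 elements, several for 23 and no name for 17377, and 562 of 583 genes matched RefSeq (assembly Zm-B73-REFERENCE-NAM-5.0, names only). MNB1b, on 230 elements, was left out of gene means.

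Ratios were centred on the array median. Each element with a value on at least 4 arrays per orientation entered a generalised least squares fit of a dye and a treatment term with the 8 plots as random effects, at 1 variance ratio (0.0347) estimated by restricted likelihood. Variances were moderated with limma 3.58.1 in R 4.3.3 and p-values adjusted by Benjamini-Hochberg over all 16201 elements, or 540 gene means, at 0.05. The fit was tested on simulated data.

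Members and gene lists were chosen with earlier results of these data known. The result of 1 further list is not reported here. Named were both member genes, every tested gene of lists of up to 6 and the 3 genes with the highest Pearson r over at least 8 arrays. Alternatives covered centring, scaling, the plot effects, the dye term, the plot number as a block, the reading of the ratio, local medians, a turned sign for the arrays where Cy5 held control plot 4, filters, robust moderation, the median over elements of a gene, and each array or plot left out.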

Additional observations from a re-analysis of the deposited data

Results flagged for a closer look

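Element 17954 of an1 had a turned ratio above 0 on every array with weedy RNA in Cy5 and below 0 on every array with control RNA in Cy5 that had a value. Its dye term, 0.46 (SE 0.12, 9 arrays), was tested and did not pass (limma adjusted p = 0.346, from 0.213 to 0.70 over the alternatives).

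The number of elements without a value lay far from the rest on array 3 with weedy RNA in Cy5, at 5453 against at most 1972 on the other arrays of that orientation. It did so as well on array 5 with control RNA in Cy5, at 9235 against at most 2967. These came from 12 checks of 1 measure within 1 dye orientation, and about 1 in 20 such checks is past the limit by chance. Elements 3914 and 17954 are among those without a value on array 5 with control RNA in Cy5. No centred ratio of the 4 elements, nor of the an1 mean, stood out in this way.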

How the results depend on the processing

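The turned ratio of the an1 gene mean was positive in 30 of 30 alternatives. It ran from 0.16 (SE 0.12) with the values taken as weedy over control on every array to 0.53 without weedy plot 2. Leaving out single arrays or plots gave 0.23 to 0.53. Elements 3914 and 17954 kept their sign as well. Element 1915 was at 0.00091 (SE 0.14) with values so taken, which shows no direction, and between 0.27 and 0.63 without single arrays or plots. LOC732812 was positive in 27 of 29 alternatives. It turned to -0.18 with values so taken and to -0.073 when the sign was turned on the 2 arrays where Cy5 held control plot 4, and its dye term then became 0.14 and 0.063. Leaving out single arrays or plots gave 0.08 to 0.25.

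The dye term of element 1915, near 0, changed sign without centring (0.00094), with arrays scaled to a common spread (0.034) and with arrays treated as independent (0.00091). It was 0.45 with values taken as weedy over control and 0.087 with those 2 arrays turned. Leaving out single arrays or plots gave -0.18 to 0.15, and for element 3914 -0.0015 to 0.29. None of these dye terms passed. A value on all arrays left element 1915 alone for an1 and gave no value for elements 3914 and 17954.

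The 2 elements past the threshold for weedy against control, neither of them a member of an1 or LOC732812, became 1 with scaling, 0 with values taken as weedy over control and 0 with those 2 arrays turned. Single omissions gave 0 to 4, with 0 without weedy plot 3 or control plot 4 and 4 when array 1 of those with control RNA in Cy5 was omitted. For the dye term, 0 became 3 with values taken as weedy over control, and single omissions gave 0 to 2, with 1 without array 2 with weedy RNA in Cy5 and 2 without weedy plot 3. Taking the values as weedy over control exchanges the roles of the terms, and it also moved the estimated variance ratio of the plots to 0, against 0.0347. The parts of these in the changed counts, and the cause of the other changes, were not tested.

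Whether plots of the same number lay together in the field is not given in the sources used here. Estimated plot effects of the same number correlated over 9486 elements at -0.51, 0.12, -0.61 and 0.21. Each weedy plot had a higher correlation with a control plot of another number. These effects were estimated from ratios that each hold a weedy and a control pool. Most plots of the same number shared no array, so the correlations can follow from which pools were hybridised together. They therefore cannot show whether plots of the same number lay together. A replicate block on plot number gave 0.38 for the an1 gene mean, 0.14 for LOC732812 and 2 elements past the threshold.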
